A study of Mus musculus with 4 samples.

Results

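Astrocytes release proteins that make neurons form synapses, and the transcripts of 10 such factors were followed here in C8-D1A cells. The 10 genes are Thbs1, Thbs2, Thbs3, Thbs4, Sparc, Sparcl1, Gpc4, Gpc6, Chrdl1 and Tgfb1. They were chosen by name, with earlier results of these data known, and each had 1 row among the 24169 genes of the table. C8-D1A is an established, cloned mouse astrocyte line, so all cells descend from 1 clone. RNA was profiled in 2 libraries of untreated cells (control 1 and control 2) and in 2 libraries of cells kept in 1 mM MBP for 24 h (MBP 1 and MBP 2). The series title links exposure of the mother to the plasticizer DBP with synapse formation in the offspring through astrocytes, the setting in which these factors matter. The labels give the compound only as MBP and name no vehicle and no genotype. Whether the replicate libraries are separate cultures is not stated, so a p-value reflects only how these libraries vary, which may be technical.

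Thrombospondins are large secreted matrix glycoproteins that bind the calcium channel subunit encoded by Cacna2d1 on neurons and promote structurally complete synapses that lack active AMPA-type glutamate receptors. Hevin, the product of Sparcl1, bridges neurexins and neuroligins across the synaptic cleft, and its relative SPARC opposes it. Glypicans are heparan sulfate proteoglycans that, once shed, recruit AMPA receptors to synapses, chordin-like 1 promotes the later switch in AMPA receptor subunits, and TGF-β1 induces synapses through SMAD signalling.

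Reads per gene were recovered from the deposited values, with library depths of 23571000 to 25907000 reads. The astrocyte label was checked against 13 markers, of which the table held 12. Only Glul (glutamine synthetase), Sox9 and S100b reached 1 FPKM in 2 or more libraries, the filter for testing (FPKM is fragments per kilobase of gene, scaled to the mapped reads of the library). The defining markers Slc1a3, Gja1 and Aqp4 stayed under 0.1 FPKM in all 4 libraries, so those markers of mature astrocytes are near 0. The summed astrocyte list was 22.2 to 23.4 FPKM in the controls and 22.6 to 23.2 in MBP. Summed oligodendrocyte lineage markers, mostly Sox10, were 123.5 and 118.9 FPKM without MBP and 108.7 and 109.0 with MBP. Of the 8 in the table, 5 passed the filter. Pdgfra and Mag stayed under 0.1 FPKM in all 4 libraries, and Cspg4 was at most 0.162 FPKM. Summed neuron markers, mostly the tubulin gene Tubb3, were 40.2 and 37.2 against 31.1 and 30.9. Tubb3 itself had 33.2 and 30.8 against 23.8 and 23.3 FPKM. Of the 4 neuron markers that passed the filter, 2 were lower in MBP (Tubb3 and Syn1) and 2 higher (Map2 and Nefl) by log2 fold change. Syt1, Snap25, Gad1 and Slc17a7 stayed under 0.1 FPKM in all 4 libraries. Microglial, fibroblast and pericyte, and endothelial lists summed to at most 9.32 FPKM in any library, led by Tmem119, Pdgfrb and Flt1, while Ptprc, Dcn and Cdh5 stayed under 0.1 FPKM in all 4. The part of these marker differences in the results below was not tested.

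Levels of the 10 factors spanned from about 159 FPKM to a single read. Sparc was highest, at a mean of 158.8 ± 6.41 FPKM (SD over the 4 libraries), rank 136 of 16167 protein-coding genes. Thbs1 followed at 96.1 ± 6.70 FPKM, rank 256. Gpc4 (17.7 ± 1.22), Sparcl1 (13.1 ± 0.693), Tgfb1 (8.84 ± 0.519) and Gpc6 (7.19 ± 0.679) formed a middle group. Thbs3 (1.45 ± 0.098) was close to the filter, and Thbs2 (0.340 ± 0.0804), Chrdl1 (0.163 ± 0.0473) and Thbs4 were under it. Hence 7 of the 10 factors could be tested. In this order 0 of the 9 pairs of neighbours overlapped in their ranges over the 4 libraries.

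The middle of that order depends on gene length. The authors' values divide by a length that, for most genes, equals the bases of all annotated exons, which was 3788 for Sparc and 5042 for Tgfb1, while the longest single transcript has 2300 and 2573 bases in GENCODE M21. For Gpc6 the exons sum to 6425 bases in that annotation, the longest transcript has 4146, and the length behind the deposited values was inferred as 9428 from whole reads, so the level of Gpc6 on the next scale, and its read counts, rest on an inferred length. Per kilobase of the longest transcript, the mean level was 17.7 for Gpc4, 17.3 for Tgfb1, 16.4 for Gpc6 and 13.9 for Sparcl1, and 4 of the 9 neighbouring pairs overlapped. On that scale the ranges of Gpc4, Tgfb1, Gpc6 and Sparcl1 each overlapped that of the next gene in this order, and those of Thbs2 and Chrdl1 overlapped too. Sparc (261.5) and Thbs1 (99.8) stayed first and second.

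**Figure D1:**
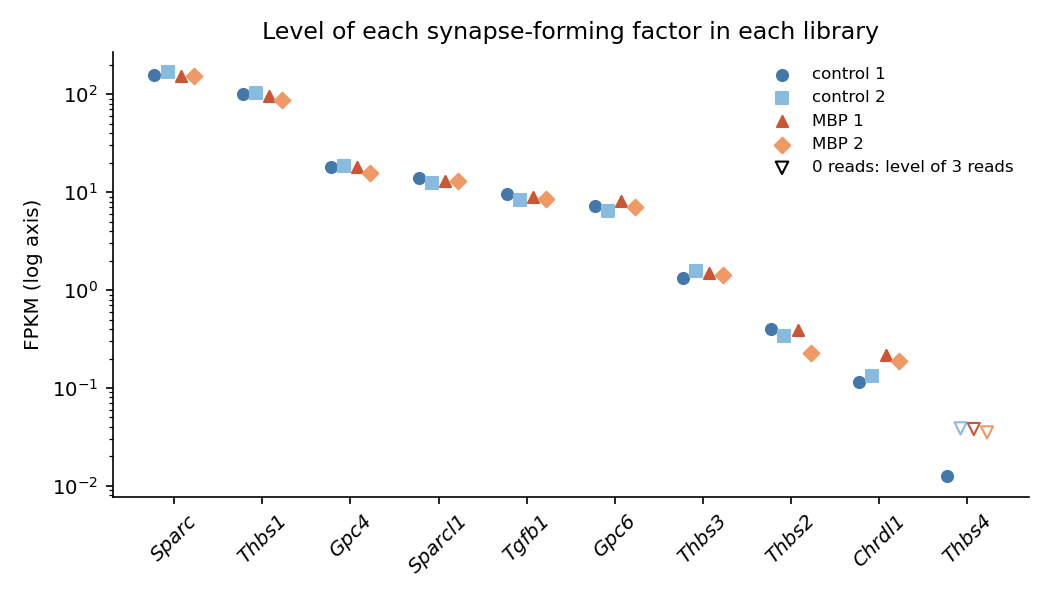
FPKM of each factor in each library on a log axis, ordered by mean level. Circles and squares are controls, filled triangles and diamonds are MBP, and open triangles give the level that 3 reads would have where a library had 0 reads. Sparc and Thbs1 lie highest, and Thbs4 has 1 read in control 1 only.

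Of the 6 factors with an entry in the RefSeq promoter table (GRCm38.p6), 3 are printed because they hold the top and the bottom of the range of levels. Each line gives the 250 bases before the start annotated by RefSeq, 5′ to 3′ on the gene's strand, with every CG pair in capitals. Sparc lies at chr11:55420081-55420330, Thbs2 at chr17:14694263-14694512 and Thbs4 at chr13:92794819-92795068, all on the minus strand. For Sparc and Gpc4 the RefSeq start lies inside the gene's span as given below, which begins farther upstream.
Sparc: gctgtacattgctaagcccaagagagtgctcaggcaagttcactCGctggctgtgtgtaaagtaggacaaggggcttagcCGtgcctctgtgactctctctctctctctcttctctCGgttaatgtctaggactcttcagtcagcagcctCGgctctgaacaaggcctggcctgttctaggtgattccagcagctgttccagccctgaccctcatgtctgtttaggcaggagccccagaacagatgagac
Thbs2: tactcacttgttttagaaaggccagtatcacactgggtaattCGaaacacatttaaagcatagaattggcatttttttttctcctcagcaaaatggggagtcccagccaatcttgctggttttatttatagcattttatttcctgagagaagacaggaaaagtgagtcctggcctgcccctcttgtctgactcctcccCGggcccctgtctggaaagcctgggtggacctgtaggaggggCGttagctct
Thbs4: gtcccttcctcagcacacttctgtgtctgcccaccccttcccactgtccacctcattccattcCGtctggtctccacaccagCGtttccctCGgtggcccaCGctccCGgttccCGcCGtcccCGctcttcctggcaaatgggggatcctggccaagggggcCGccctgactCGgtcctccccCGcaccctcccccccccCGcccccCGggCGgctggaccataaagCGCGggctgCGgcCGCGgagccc

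CG pairs did not rank these 6 promoters as their levels did. Sparc, the highest factor, had 4 CG pairs in this window, a number that 62.2% of the 32851 promoters in the table reach or exceed, and a GC content of 54.0%. Thbs4, at 1 read in all, had 19 CG pairs, reached by 19.7% of promoters, and a GC content of 70.8%. Thbs2 had 3 CG pairs and Thbs3 had 6, against 18 for Gpc4 and 21 for Tgfb1. The GC box GGGCGG, searched on both strands, occurs in 32.7% of promoters. It was found 3 times before Thbs4, 5 times before Tgfb1, once each before Thbs3 and Gpc4, and not before Thbs2 or Sparc. The TATA sequence TATAAA, on either strand, occurs in 12.4% of promoters and was found before Thbs2 only. These letter matches are a description of the windows.

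Among thrombospondins, nearly all transcript came from 1 gene. Thbs1 (ENSMUSG00000040152, chromosome 2, 118111876 to 118127133, plus strand, GRCm38) encodes a trimeric thrombospondin. It had 99.9 and 101.7 FPKM without MBP and 96.0 and 86.7 with MBP, from 14776, 14561, 13967 and 13641 reads. Both MBP libraries lay below both controls, and MBP 2 lay farthest down. In bulk RNA fewer cells that make a transcript and less transcript per cell cannot be told apart. Thbs1 made up 98.2% ± 0.0613 of the summed FPKM of the 5 thrombospondin genes without MBP and 98.1% ± 0.0441 with it (SD, n = 2 each). The log2 fold change, MBP minus control on log2(FPKM + 1), was -0.14 (SE 0.0695, 95% interval -0.32 to 0.04, limma adjusted p = 0.548). That interval spans 0.801-fold to 1.02-fold. The estimate rested on the MBP libraries unequally, at -0.21 without MBP 1 and -0.07 without MBP 2, and was -0.05 with quantile normalization. Thbs1 shares 208 exon bases, 3.4% of its exons, with Gm29233 on the opposite strand, for which no level is given. Whether counting used strand is not stated.

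The other thrombospondins were low. Thbs3 (ENSMUSG00000028047, chromosome 3, 89215180 to 89226837, plus strand), which encodes a pentameric thrombospondin, had 1.34 and 1.57 FPKM without MBP and 1.49 and 1.42 with MBP. These groups overlapped, and the log2 fold change was 0.0022 (95% interval -0.28 to 0.28). Thbs3 shares 318 exon bases, 6.59% of its exons, with Mtx1 on the opposite strand, and no source states whether counting used strand, so its value is uncertain. Mtx1 itself had 4.72 to 6.49 FPKM. Thbs2 (ENSMUSG00000023885, chromosome 17, 14665500 to 14694262, minus strand), the other trimeric form, had 58 and 47 reads without MBP and 56 and 35 with MBP, or 0.402, 0.337, 0.395 and 0.228 FPKM. Only MBP 2 stood low, and its 95% Poisson interval, 0.159 to 0.317 FPKM, overlapped that of control 2, 0.247 to 0.448. Thbs4 (ENSMUSG00000021702, chromosome 13, 92751590 to 92794818, minus strand), a pentameric form, had 1 read in control 1 and 0 in the other 3 libraries. For a count of 0 a preset limit of 3 reads was used, or 0.0352 to 0.0387 FPKM in those libraries. The 95% Poisson interval reached higher there, to 3.69 reads. Comp, the fifth thrombospondin, made up at most 0.0408% of the family's summed FPKM.

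**Figure D2:**
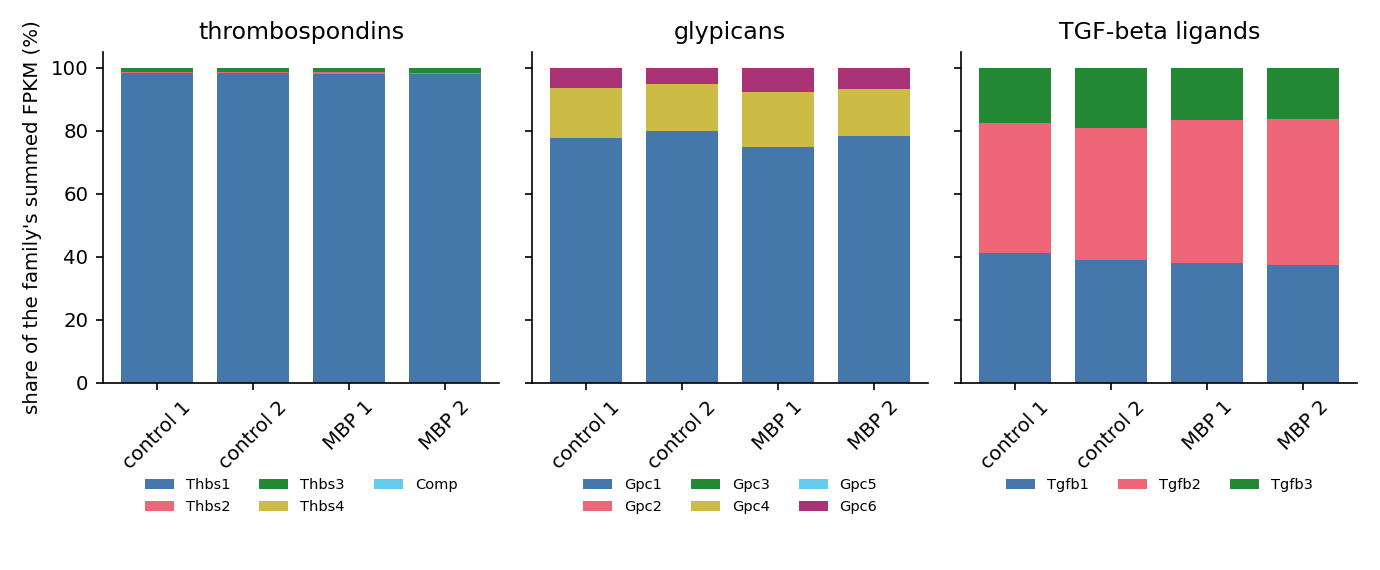
Share of each gene in the summed FPKM of its family, 1 bar per library. Thbs1 fills 98.1% or 98.2% of the thrombospondin bar in each library, Gpc1 74.7% to 79.9% of the glypican bar, and Tgfb1 and Tgfb2 each fill more of theirs than Tgfb3. Shares depend on the length by which each gene was divided.

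Sparc (ENSMUSG00000018593, chromosome 11, 55394500 to 55423183, minus strand) encodes a collagen-binding matrix protein. It had 157.4 and 168.2 FPKM without MBP and 154.3 and 155.1 with MBP. The groups did not overlap, but control 1 lay closer to the MBP libraries than to control 2. The log2 fold change was -0.07 (95% interval -0.23 to 0.09, limma adjusted p = 0.690), and -0.02 after the correction for GC content and length described below. Sparcl1 (ENSMUSG00000029309, chromosome 5, 104079111 to 104113733, minus strand), which encodes hevin, had 13.96 and 12.3 FPKM without MBP and 12.9 and 13.1 with MBP. Both MBP values lay between the controls, and the log2 fold change was -0.0062, with limma's 95% interval running from -0.20 to 0.19 (adjusted p = 0.984). Sparc exceeded Sparcl1 by 11.3 and 13.7 times without MBP and by 11.9 and 11.8 times with MBP. This ratio in MBP also fell within the range of the controls. Its size depends on the length used, as the mean levels per kilobase of the longest transcript were 261.5 for Sparc and 13.9 for Sparcl1.

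Gpc4 (ENSMUSG00000031119, chromosome X, 52053021 to 52165252, minus strand), which encodes glypican-4, had 18.2 and 18.5 FPKM without MBP and 18.1 and 15.9 with MBP. The groups were apart only by the small step from control 1 to MBP 1, and MBP 2 stood low. Its log2 fold change was -0.11 (95% interval -0.30 to 0.09, limma adjusted p = 0.647), -0.20 without MBP 1 and -0.0157 without MBP 2. Gpc6 (ENSMUSG00000058571, chromosome 14, 116925297 to 117979529, plus strand), which encodes glypican-6, had 7.27 and 6.41 FPKM without MBP and 8.05 and 7.03 with MBP, from 1668, 1425, 1819 and 1716 reads. These groups overlapped, and limma put the log2 fold change at 0.12, between -0.12 and 0.36 with 95% confidence (adjusted p = 0.661). It ranged from 0.036 to 0.21 as single libraries were left out. The ratio of Gpc4 to Gpc6 was 2.51 and 2.88 without MBP and 2.25 and 2.26 with MBP. Its size depends on the lengths behind the FPKM, 2651 bases for Gpc4 and an inferred 9428 for Gpc6. Per kilobase of the longest transcript the mean levels were 17.7 and 16.4, and the ranges overlapped. Neither gene was the main glypican of these cells. Gpc1, a relative that is not among the 10 factors, had 88.1 and 98.7 FPKM without MBP and 77.4 and 82.1 with MBP, and made up 78.7% ± 1.65 of the 6 glypican genes' summed FPKM in controls and 76.4% ± 2.48 in MBP. Its log2 fold change was -0.22 (limma adjusted p = 0.503). Gpc2, Gpc3 and Gpc5 were near-silent, each at most 0.0128% of the family's sum in any library.

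Chrdl1 (ENSMUSG00000031283, chromosome X, 143285674 to 143394262, minus strand), a secreted antagonist of bone morphogenetic proteins, had the largest ratio of MBP to control means among the 9 factors with reads in all libraries, at a low level. It had 19 and 21 reads without MBP and 35 and 33 with MBP, or 0.115, 0.132, 0.216 and 0.188 FPKM. Both MBP libraries lay above both controls, and the ratio of means was 1.64. The 95% Poisson intervals overlapped, from 0.0816 to 0.201 FPKM in control 2 and from 0.130 to 0.265 in MBP 2, and cover counting error only. Chrdl1 was under the filter. Without a filter, limma on log2(FPKM + 1) put the log2 fold change at 0.0976, between 0.00287 and 0.192 with 95% confidence (adjusted p = 0.640). Its unadjusted p in that limma fit was 0.0460, and 7.72% of the 23148 genes fitted had one under 0.05. In limma-voom on recovered reads its log2 fold change was 0.69 (95% interval -0.0152 to 1.40, adjusted p = 0.438), so the difference did not pass. Groups that did not overlap and were higher in MBP occurred in 21.2% of the 14494 genes that averaged 10 or more reads. Chrdl1 also has the lowest GC content of the 10 factors, 41.0%. Tested genes within 1 point of it had a median log2 fold change of 0.07 on log2(FPKM + 1). That scale understates changes of genes as low as Chrdl1, which was not among the tested genes. The part of GC content in the Chrdl1 difference was not tested.

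**Figure D3:**
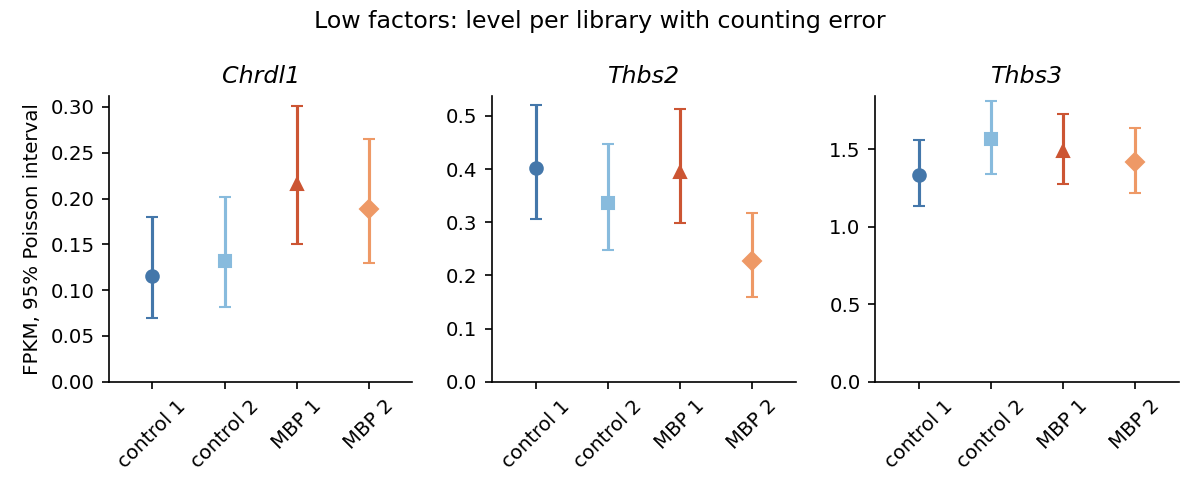
FPKM of Chrdl1, Thbs2 and Thbs3 in each library, with 95% Poisson intervals of the reads as bars. Chrdl1 is higher in both MBP libraries with overlapping intervals, Thbs2 is low in MBP 2 only, and Thbs3 shows no separation of the groups.

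Tgfb1 (ENSMUSG00000002603, chromosome 7, 25687002 to 25705077, plus strand) encodes the cytokine TGF-β1. It had 9.51 and 8.41 FPKM without MBP and 9.00 and 8.45 with MBP. Both MBP values lay between the controls, with a log2 fold change of -0.03 (95% interval -0.23 to 0.17, limma adjusted p = 0.905). It shared the family with Tgfb2, at 9.57 and 9.004 FPKM without MBP and 10.8 and 10.5 with MBP, and with Tgfb3, at 4.08 and 4.16 against 3.92 and 3.72. Tgfb1 held 40.01% ± 1.47 of the summed FPKM of these 3 ligands in controls and 37.6% ± 0.536 in MBP, and Tgfb2 held 41.5% ± 0.279 and 45.9% ± 0.662. Such shares depend on the length by which each gene was divided. The mean level of Tgfb1 was 8.84 FPKM but 17.3 per kilobase of the longest transcript, a level not computed for Tgfb2 and Tgfb3. The log2 fold change of Tgfb2 was 0.18 (adjusted p = 0.503), which did not pass.

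Across the 10 factors, none of the 7 tested passed limma's test. Of all 12403 tested genes 0% passed (adjusted p under 0.05), and 9.68% had an unadjusted p under 0.05, which 0 of the 7 factors had. In limma-voom on recovered reads 0 of 9 factors passed, against 16 of 14494 genes, or 0.11%. There 1 factor, Thbs1, had an unadjusted p under 0.05, as did 11.6% of those genes, and its log2 estimate of -0.14 had a 95% interval from -0.285 to -0.00372 (adjusted p = 0.418). The median log2 fold change was -0.03 over the 7 factors, 2 positive and 5 negative, and -0.0048 over all tested genes. In 3 of the 7 the groups did not overlap, against 44.8% of all tested genes. All 3 (Thbs1, Sparc and Gpc4) were lower in MBP, where 23.5% of tested genes had that pattern. The highest upper bound among the 7 intervals was 1.29-fold, for Gpc6, and the lowest bound was 0.801-fold, for Thbs1, on the log2(FPKM + 1) scale. That scale narrows the interval of Thbs3, the lowest tested factor, so these bounds do not hold for it on other scales. With 0.1 added to FPKM in place of 1, its 95% interval in log2 ran from -0.453 to 0.463, wider at both ends.

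**Figure D4:**
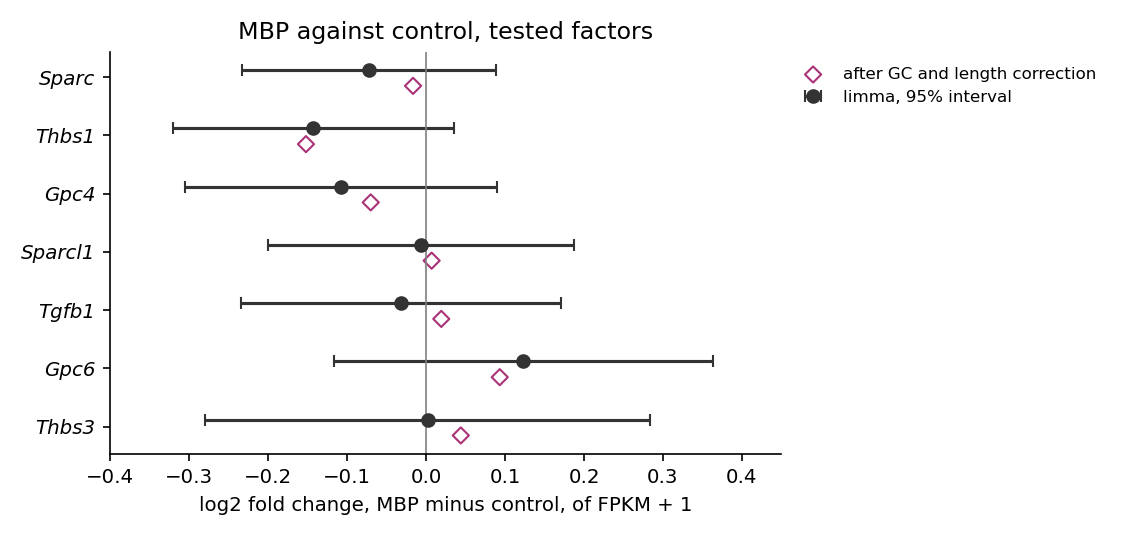
Log2 fold change (MBP minus control) of the 7 tested factors, ordered by level. Filled points with bars are limma estimates with 95% intervals, which all include 0, and open diamonds are estimates after correction for GC content and length.

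Fold changes in these libraries followed the GC content of the transcript, with a Spearman's rho of -0.44 across 12389 genes, which are not independent replicates. The longest transcripts of the 7 tested factors have GC contents of 45.7% to 54.0%, around the median of 49.0% for tested genes. After a loess correction for GC content and length the log2 fold change was -0.15 for Thbs1, -0.07 for Gpc4, 0.09 for Gpc6, 0.04 for Thbs3 and 0.02 for Tgfb1. Thbs1 thus stayed within 0.01 of its uncorrected estimate, while Tgfb1 and Sparcl1 changed sign.

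**Figure D5:**
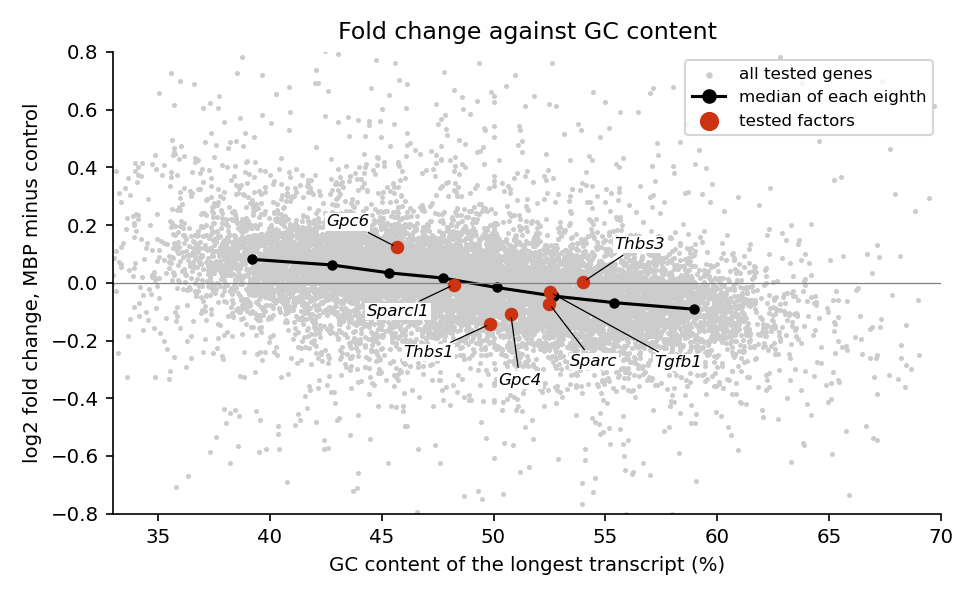
Log2 fold change against GC content of the longest transcript, 1 grey point per tested gene, with 138 genes outside the drawn range. The black line joins medians of eighths of the genes, from 0.08 at the lowest GC content to -0.09 at the highest, and the 7 tested factors (red) lie near or below 0 except Gpc6.

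Relatives and partners of these factors were read from lists of related genes, also chosen with earlier results of these data known. Of 15 relatives by family, 13 were in the table, 4 were tested and 0 passed limma's test, with a median log2 fold change of -0.05. Besides Gpc1, Tgfb2 and Tgfb3, these included Smoc2, a matrix relative of Sparc, at 16.9 and 17.1 against 17.3 and 16.3 FPKM. Of 15 thrombospondin receptors and partners, 11 were tested, 0 passed limma's test, and the median log2 fold change was -0.04. Cacna2d1, the synaptic receptor, had 6.26 and 5.54 FPKM without MBP and 6.57 and 6.70 with MBP. Cd47, an immunoglobulin-like receptor, had 6.01 and 6.32 against 6.47 and 6.74. The integrin subunit gene Itga3 had 35.6 and 36.4 against 31.99 and 31.5, and Calr, the calcium-binding chaperone calreticulin, had 519.5 and 494.4 against 433.6 and 402.0. Cd36, Cacna2d2 and Cacna2d3 stayed under 0.1 FPKM.

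Among 18 partners of hevin, glypicans and chordin-like 1, 6 were tested and 0 passed, with a median of -0.04. Nlgn2, a neuroligin gene, had 13.3 ± 0.27 FPKM without MBP and 12.3 ± 0.426 with MBP (SD, n = 2 each), and Ptprs, a phosphatase receptor for heparan sulfate, had 19.4 and 18.7 against 19.0 and 18.1. Ptprf, a related phosphatase receptor, had 16.4 and 16.1 against 15.4 and 14.7. The bone morphogenetic protein gene Bmp4 had 5.56 and 4.90 against 5.84 and 5.52. Heparan sulfate synthesis and glypican release had 16 tested genes of 18 listed, 0 that passed and a median of -0.02. Ndst1, which sulfates heparan, had 71.4 and 73.1 FPKM without MBP and 69.1 and 67.9 with MBP, and Furin, which cleaves glypicans, had 13.98 and 14.4 against 13.0 and 13.0. Glce, an epimerase of the pathway, had 11.03 and 11.8 against 12.5 and 12.5, and the sulfotransferase gene Hs3st1 had 1.44 and 1.47 against 1.65 and 1.90.

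Of 13 proteases that act on these factors, 9 were tested and 0 passed, and 3 had an unadjusted p under 0.05, all lower in MBP, where 5.87% of all tested genes had such a p. An unadjusted p under 0.05 was also found for 2 of 11 thrombospondin receptors and partners (Calr and Itga3, lower), 2 of 14 genes of TGF-β storage and signalling (Smad6 and Ltbp3, lower), and 2 of 4 relatives (Gpc1 lower, Tgfb2 higher), and 0 genes of the remaining lists of partners, heparan sulfate synthesis, TGF-β targets and other synapse regulators. The 3 proteases were Adamts1 (76.7 and 72.8 FPKM in the controls, 67.5 and 65.0 in MBP), which can cleave thrombospondins, Adamts4 (11.3 and 10.4 against 9.16 and 9.75), which can cleave hevin, and Adamts5 (6.82 and 6.98 against 5.86 and 5.89). Limma's adjusted p was 0.503, 0.514 and 0.503. Adam9, a membrane protease, had 67.1 and 63.3 FPKM without MBP and 69.2 and 71.6 with MBP.

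The TGF-β pathway was read in the same way. Its storage proteins, receptors and SMADs had 14 tested genes of 21 listed, 0 that passed and a median of -0.01. Smad6, an inhibitory SMAD, had 3.50 and 3.36 FPKM without MBP and 2.47 and 2.31 with MBP. Its log2 fold change was -0.38 (limma adjusted p = 0.457, -0.29 after the GC and length correction). Ltbp3, which stores latent TGF-β in the matrix, had 45.1 and 43.8 FPKM against 39.6 and 37.0, and the receptor gene Tgfbr1 had 8.67 and 8.73 against 9.21 and 9.81. The integrin gene Itgb8, whose product activates latent TGF-β, had 5.77 and 5.67 against 5.14 and 5.53. Target genes of TGF-β had 14 tested of 19 listed, 7 positive and 7 negative, with a median of -0.02 and 0 that passed. Acta2, smooth muscle actin, had 569.7 and 605.8 FPKM without MBP and 540.6 and 515.5 with MBP, and Tagln had 48.9 and 54.0 against 50.2 and 43.2. Nedd9 had 9.42 and 8.92 against 8.37 and 8.80, and Tgif1, a repressor of SMAD signalling, had 13.5 and 12.9 against 14.2 and 13.8.

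Other proteins by which astrocytes regulate synapses had 11 tested genes of 23 listed, 6 positive and 5 negative, and 0 passed. Megf10, a receptor for engulfing synapses, had 51.0 and 49.8 FPKM without MBP and 46.4 and 49.2 with MBP. The guidance factor gene Sema3a had 7.28 and 6.86 against 7.81 and 7.96, and Bdnf, a neurotrophin gene, had 2.68 and 2.58 against 2.79 and 3.15. Efnb1, an ephrin gene, had 8.15 and 7.55 against 7.09 and 7.30.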

How the data were processed

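Total RNA of C8-D1A cells was sequenced in 4 libraries, 2 per group. The labels' protocols describe depletion of ribosomal RNA and a directional kit. According to the submitters' processing notes, bcl2fastq and HISAT2 were used with GRCm38; their versions, the counting program, the annotation and the use of strand are not given. Expression was deposited by the authors as 1 table in FPKM, whose columns were matched to samples by title.

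FPKM times exon length (GENCODE M21) gave whole multiples of a step constant within each library, from which reads and depth follow. For 6059 single-exon genes at least 99.95% of values under 1000 reads were whole within 0.05. For Thbs2 and Gpc6, whose coordinates differ in M21, the smallest lengths that made all 4 libraries whole were used (5922 and 9428 bases).

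The 12403 genes that reached 1 FPKM in 2 or more libraries were tested as log2(FPKM + 1) with limma 3.58.1 in R 4.3.3 (trend, two-sided), with Benjamini-Hochberg adjustment over all tested genes and a threshold of 0.05. Fold changes on this scale understate those of low genes. Alternatives were other pseudocounts, filters, scalings, a loess correction (span 0.5), protein-coding genes, limma-voom, no spread trend and each library left out. Members, lists and alternatives were chosen with earlier results of these data known. Named genes are all members and, per list, up to 4 tested genes with the lowest unadjusted p. Reads carry no molecular identifiers, so intervals on reads cover counting error only.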

Additional observations from a re-analysis of the deposited data

How the results depend on the processing

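No tested factor passed the threshold under any alternative that was run. Genes called over the whole table stayed at 0 except in limma-voom on recovered reads, which called 16 of 14494 genes, 15 of them lower in MBP, and none of the 10 factors. An unadjusted p under 0.05 was found for Thbs1 in limma-voom (0.0448) and for Chrdl1 without a filter (0.0460), and for no other factor in any alternative. Thbs1, Sparc, Gpc4 and Gpc6 kept the direction of their log2 fold change in every alternative, while 3 factors with estimates near 0 did not. Sparcl1 stood at 0.0154 with TPM, 0.000855 with quantile normalization and 0.00704 after the GC and length correction, and ran from -0.0921 to 0.0796 as single libraries were left out. Tgfb1 stood at 0.0193 after the GC and length correction and ran from -0.112 to 0.0477 with single libraries left out. Thbs3 stood at -0.0127 with quantile normalization and ran from -0.0652 to 0.0696. The cause was not tested. Sparc came to -0.00128 with quantile normalization. Thbs3 has no value at a filter of FPKM 5. No paired analysis was run because the labels do not state which control library, if any, belongs with which MBP library. Depth limits Chrdl1, Thbs2 and Thbs4, which had at most 58 reads in a library.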

Other observations

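Genes with a profile over the 4 libraries most like those of the 2 highest factors were found by the root mean square difference of centred log2(FPKM + 1). For Sparc these were Eftud2, Zik1 and Fastk, at 0.0033, 0.0036 and 0.0036, and 2133 of the 12403 tested genes lay within 0.05. For Thbs1 they were Sqle, Sap18 and Eme2, at 0.0052, 0.0057 and 0.0076, and 562 genes lay within 0.05. With only 4 libraries many genes match this closely.

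The machinery that folds and exports matrix proteins, listed for its place in the secretion of these factors, had 10 tested genes, 7 negative and 3 positive, with a median log2 fold change of -0.05 and 0 that passed limma's test. An unadjusted p under 0.05 was found for 2 of the 10, Pdia3 and Hsp90b1, both lower in MBP, against 5.87% of all tested genes. Pdia3, a disulfide isomerase, had 187.1 and 194.2 FPKM without MBP and 153.3 and 163.8 with MBP. Hsp90b1, a chaperone of the endoplasmic reticulum, had 222.2 and 234.6 against 189.9 and 195.5. P4hb, another disulfide isomerase, had 109.8 and 126.1 against 98.4 and 104.9. Serpinh1, the collagen chaperone, had 112.4 and 124.3 against 104.4 and 106.4. The 10 genes are only a part of this machinery. None of them was among the 16 genes called by limma-voom on recovered reads, of which 15 were lower in MBP. Those calls did include other folding genes of the endoplasmic reticulum. Among them were Hspa5, Hyou1, Pdia4 and Pdia6, with log2 fold changes of -0.36, -0.35, -0.34 and -0.40.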
